A study of Homo sapiens with 9 samples.

Results

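The genes that brake and drive the entry of the cell cycle into S phase were followed in HT29, a line established from a human colon cancer, after 24 h with instant caffeinated coffee or with caffeic acid, a phenolic acid of coffee. The group comprised the 7 CDK inhibitor genes CDKN1A, CDKN1B, CDKN1C, CDKN2A, CDKN2B, CDKN2C and CDKN2D, the cyclin E genes CCNE1 and CCNE2, and the kinase gene CDK2 that cyclin E activates, which makes 10 genes. They were chosen by name, and every probe set (a group of array probes that reads 1 transcript region) annotated to exactly 1 of these symbols was taken. This gave 21 of the 54613 probe sets that are not array controls, for 9 of the 10 genes. CDKN2C was not analysed here. CDKN1C had 5 probe sets, CDKN2A and CDK2 had 3 each, CDKN2B, CDKN2D, CCNE1 and CCNE2 had 2 each, and CDKN1A and CDKN1B had 1 each.

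The coffee group (ICC) received instant caffeinated coffee at 7 µg/mL and the CA group caffeic acid at 1.68 µg/mL, both for 24 h and both at doses described as not toxic to the cells, while Control cells received nothing. Whole-genome Affymetrix arrays were hybridised with their RNA, 3 per group, numbered 1 to 3. All 9 arrays came from this 1 cell line. Neither the meaning of the number nor the origin of replicates in separate cultures is stated, so each p-value reflects array-to-array spread alone, and that spread may be technical. The medians of the arrays lay between 43.8 and 46.6 intensity units, and any pair of arrays correlated at 0.993 to 0.998 across probe sets. Of 10 colon epithelium markers 7 lay above the upper quartile of all probe sets (7.61 log2), among them EPCAM at a mean of 13.11 log2 and KRT20 at 11.70, while CDH17 was dim at 4.14. Of 8 measured markers of fibroblasts, leukocytes and endothelium none was that bright, and 5 lay below the median of all probe sets. They ranged from the leukocyte gene PTPRC at 3.65 to the fibroblast gene COL1A1 at 7.24. The colon markers CDX1 (7.15) and CDX2 (5.93) also lay below the upper quartile, and intensities of different probe sets do not rank expression. The arrays measure RNA of the whole culture, in which a change in the share of cells at 1 stage of the cycle and a change in RNA per cell cannot be told apart.

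Cyclin E binds CDK2, and the pair phosphorylates the retinoblastoma protein, which frees E2F factors to turn on the genes of DNA replication. Inhibitors of the Cip/Kip family, p21 (CDKN1A), p27 (CDKN1B) and p57 (CDKN1C), bind complexes of cyclin and CDK2, whereas the INK4 family, p16 (CDKN2A), p15 (CDKN2B), p18 (CDKN2C) and p19 (CDKN2D), binds CDK4 and CDK6 and keeps cyclin D away. CDKN2B is known as a target of TGF-beta, and p27 is controlled to a large extent through the stability of its protein, which arrays do not see.

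Across the 9 arrays the inhibitor CDKN1A varied more than any other member, with an SD of 0.77 log2, followed by CDKN2B with 0.62 and 0.51 in its 2 probe sets. In the other 18 probe sets the SD over all arrays lay between 0.065 and 0.28 log2. In CDKN1A the treatment group held 0.269% of the variance and the replicate number 85.1%, while in CDKN1B the group held 84.3% and the number 2.69%. Over the 21 member probe sets the medians of these shares were 32.5% for the group and 23.0% for the number, and over all probe sets they were 22.2% and 30.01%. Levels below are log2 intensities, which are compared between arrays of 1 probe set and not between probe sets. A mean of 5.49 log2 was the middle of all probe sets and 4.15 log2 the lower quartile.

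**Figure D1:**
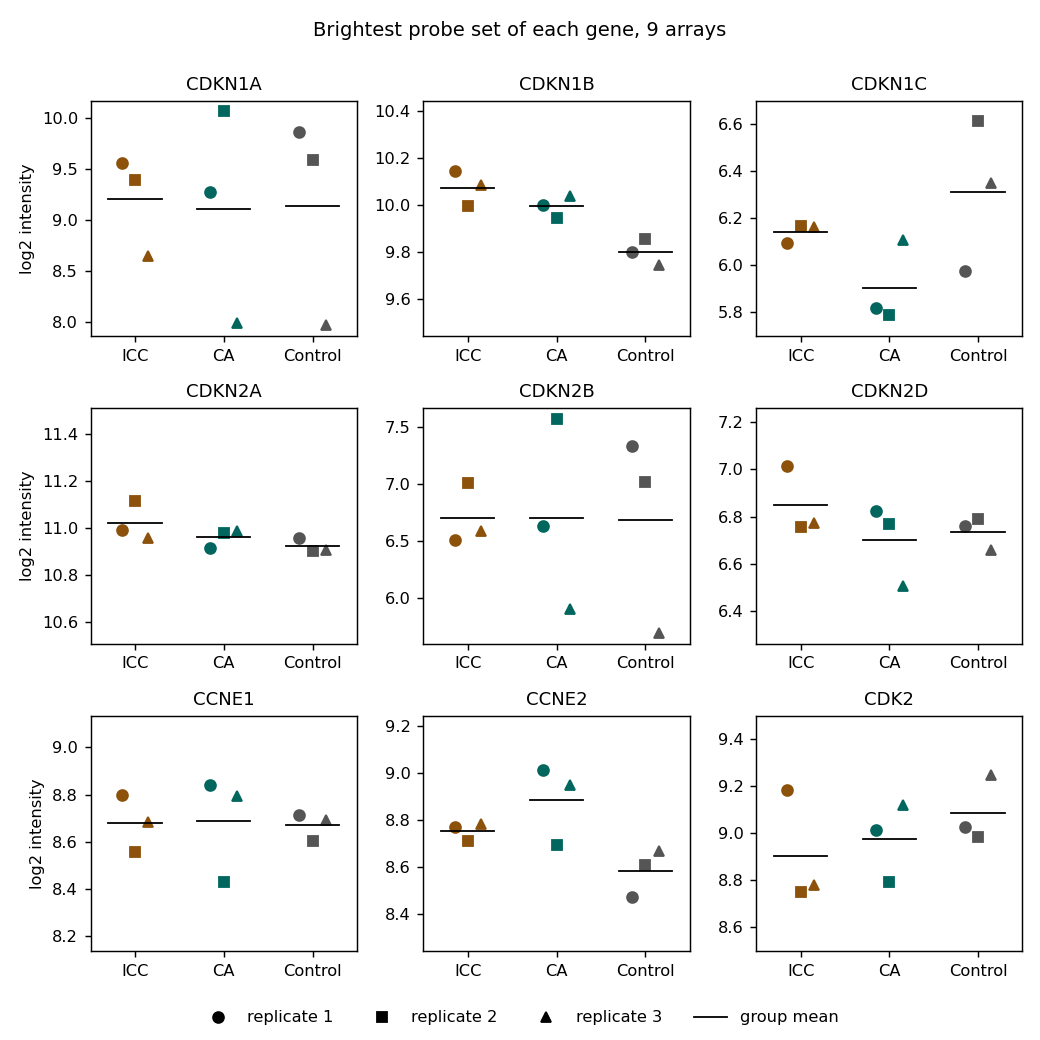
Log2 intensity (vertical axes, a scale for each gene) of the brightest probe set of each of the 9 measured genes in ICC, CA and Control arrays. Symbols give the replicate number and lines the group means. The replicate 3 arrays of CDKN1A sit between 7.97 and 8.65, below the other 6, and the CDKN1B arrays of ICC and CA sit at 9.94 or above while those of Control sit at 9.86 or below.

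Of the Cip/Kip inhibitors, CDKN1A (p21, chr6:36676463-36687332 in GRCh38.p14) read 9.56, 9.40 and 8.65 log2 in ICC replicates 1, 2 and 3, 9.28, 10.06 and 7.99 in CA, and 9.86, 9.59 and 7.97 in Control. The groups overlapped, and in each of them replicate 3 was the lowest array. The group means were 9.20 ± 0.48 in ICC, 9.11 ± 1.04 in CA and 9.14 ± 1.02 in Control (SD, n = 3 each). The difference of ICC from Control was +0.06 log2 with a 95% interval of -1.17 to 1.29, and that of CA from Control was -0.03 with an interval of -1.26 to 1.205. With the replicate number as a block the differences were the same and the intervals narrower, at -0.42 to 0.55 for ICC and -0.51 to 0.46 for CA. Only the intervals with the block leave out a 2-fold change, and those without it include one in either direction. Within same-numbered arrays the differences of ICC from Control were -0.30, -0.19 and +0.68 in replicates 1, 2 and 3. Without Control replicate 3 the difference of ICC from Control was -0.52.

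CDKN1B (p27, chr12:12717368-12722369) was the member with the smallest p-value in ICC against Control without the replicate block. With the block CCNE2 probe set 211814_s_at had a smaller one (unadjusted p 0.00142, against 0.0037 for CDKN1B). In CA against Control, with or without the block, several probe sets had smaller ones than CDKN1B. These were CCNE2 probe set 205034_at and CDKN1C probe sets 213182_x_at, 216894_x_at and 213348_at. CDKN1B read 10.14, 9.99 and 10.08 log2 in ICC, 9.999, 9.94 and 10.04 in CA, and 9.80, 9.86 and 9.74 in Control. All 6 treated arrays lay above all 3 Control arrays. The difference was +0.27 ± 0.070 log2 in ICC (SE, n = 3 arrays in each group, 1.21-fold, 95% interval 0.12 to 0.43) and +0.19 ± 0.070 in CA (1.14-fold, 95% interval 0.038 to 0.35), and both were above 0 in 3 of 3 same-numbered pairs. Neither passed limma's test over all probe sets, with unadjusted p of 0.00276 and adjusted p of 0.456 in ICC, and 0.0196 and 0.986 in CA. Between ICC and CA the difference was +0.08 log2 (95% interval -0.075 to 0.24, adjusted p 1). These comparisons use the same Control arrays.

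CDKN1C (p57, an imprinted gene that is silent in many adult tissues) was read by 5 probe sets, of which 1 lay above and 4 below the middle of all probe sets. The brightest, 213348_at, read 6.09, 6.17 and 6.16 log2 in ICC, 5.82, 5.79 and 6.11 in CA, and 5.97, 6.61 and 6.35 in Control. The difference of CA from Control was -0.41 ± 0.14 log2 (SE, 1.33-fold, unadjusted p 0.0176), with the groups overlapping. It was -0.26 without Control replicate 2 and -0.58 without Control replicate 1. Probe set 213182_x_at read 5.44, 5.23 and 5.33 in ICC, 4.96, 5.02 and 5.23 in CA, and 5.33, 5.48 and 5.26 in Control. Probe set 216894_x_at read 5.20, 5.37 and 5.14 in ICC, 5.10, 4.84 and 5.04 in CA, and 5.22, 5.56 and 5.20 in Control. In both, all CA arrays lay below all Control arrays, at -0.29 and -0.33 log2 (unadjusted p 0.0138 and 0.0146), and the second was -0.22 without Control replicate 2. The other 2 probe sets stood at -0.16 and -0.07. All 5 CDKN1C probe sets were thus lower in CA in 3 of 3 same-numbered pairs, and the adjusted p was between 0.986 and 0.995 in limma's test. They read the same transcript and are not independent, and probe sets ending in _x_at can also bind related sequences.

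In ICC the 5 CDKN1C probe sets stood between -0.17 and +0.08 log2 of Control, on both sides of 0. Set directly against CA, at a dose that differs, all 5 were higher in ICC in 3 of 3 pairs, by +0.13 to +0.26 log2. Probe set 219534_x_at read 5.52, 5.57 and 5.50 in ICC, 5.27, 5.14 and 5.47 in CA, and 5.30, 5.49 and 5.57 in Control, with ICC above CA in all arrays (+0.24 log2, unadjusted p 0.0363, adjusted p 1). For 213182_x_at the difference of ICC from CA was +0.26 (unadjusted p 0.0205, adjusted p 1), and there the groups met at the same value of 5.23.

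Of the INK4 inhibitors, CDKN2A (p16, which shares its locus with the transcript for p14ARF, chr9:21967752-21995324) was bright and even. Its brightest probe set, 209644_x_at, read 10.99, 11.12 and 10.96 log2 in ICC, 10.92, 10.98 and 10.99 in CA, and 10.96, 10.90 and 10.91 in Control. The difference of ICC from Control was +0.10 (95% interval -0.052 to 0.25) and that of CA from Control +0.04 (-0.11 to 0.19). Probe set 207039_at stood at +0.09 in ICC and -0.01 in CA, and the dimmer 211156_at at -0.09 and -0.05. The files do not say which of the transcripts of the locus each probe set reads.

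CDKN2B (p15), the neighbour of CDKN2A at chr9:22002903-22009313, was uneven among replicates, as CDKN1A was. Probe set 236313_at read 6.51, 7.01 and 6.59 log2 in ICC, 6.63, 7.57 and 5.91 in CA, and 7.33, 7.02 and 5.70 in Control. Probe set 207530_s_at read 5.23, 5.64 and 5.02 in ICC, 5.39, 6.16 and 5.06 in CA, and 6.48, 5.405 and 5.13 in Control. The groups overlapped in both, and the 95% intervals against Control spanned -0.97 to 1.01 for the first and -1.15 to 0.40 for the second in ICC. CDKN2D (p19) read 7.01, 6.75 and 6.77 in ICC, 6.82, 6.77 and 6.51 in CA, and 6.76, 6.79 and 6.66 in Control with probe set 210240_s_at, at +0.11 log2 in ICC and -0.04 in CA. Its other probe set was dim, with a mean of 4.54, and stood at +0.07 and +0.13.

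Of the cyclins E, CCNE1 read 8.80, 8.56 and 8.68 log2 in ICC, 8.84, 8.43 and 8.80 in CA, and 8.71, 8.60 and 8.69 in Control with its brighter probe set, 213523_at. The differences from Control were +0.01 in ICC (95% interval -0.24 to 0.26) and +0.02 in CA (-0.23 to 0.27). The second CCNE1 probe set was dim, at a mean of 4.22.

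CCNE2 was read by 2 bright probe sets. Probe set 205034_at read 8.77, 8.71 and 8.79 log2 in ICC, 9.01, 8.69 and 8.95 in CA, and 8.47, 8.61 and 8.67 in Control. All ICC and all CA arrays lay above all Control arrays, at +0.17 ± 0.093 (unadjusted p 0.0930, adjusted p 0.646) and +0.30 ± 0.093 log2 (1.23-fold, unadjusted p 0.00851, adjusted p 0.986). Probe set 211814_s_at read 7.83, 7.59 and 7.58 in ICC, 8.27, 7.62 and 8.08 in CA, and 8.29, 7.95 and 7.99 in Control. There all ICC arrays lay below all Control arrays, at -0.41 ± 0.16 log2 (1.33-fold, unadjusted p 0.0248, adjusted p 0.565), in 3 of 3 pairs, and CA stood at -0.09. In ICC the 2 probe sets of CCNE2 therefore lay on opposite sides of Control in every array, and no direction can be given for the gene. Set against CA, ICC stood at -0.32 log2 in 211814_s_at, lower in 3 of 3 pairs, and at -0.13 in 205034_at. The unadjusted p was 0.0668 and 0.194 in limma's test. With the replicate block that of 211814_s_at was 0.00692 (adjusted p 0.882).

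CDK2 itself was read by 2 bright probe sets and a dim one. Probe set 204252_at read 9.18, 8.75 and 8.78 log2 in ICC, 9.01, 8.79 and 9.12 in CA, and 9.03, 8.98 and 9.25 in Control, at -0.18 in ICC and -0.11 in CA (unadjusted p 0.199 and 0.424). In ICC the replicate 1 pair was +0.16, and the difference was -0.32 without ICC replicate 1 and -0.10 without Control replicate 3. Probe set 211804_s_at read 8.55, 7.95 and 7.89 in ICC, 8.38, 8.07 and 8.46 in CA, and 8.47, 8.48 and 8.58 in Control. Its difference was -0.38 ± 0.16 in ICC (unadjusted p 0.0395, adjusted p 0.585), which rested on replicates 2 and 3 while replicate 1 was +0.08 (-0.59 without ICC replicate 1), and -0.21 in CA, where all arrays lay below Control (unadjusted p 0.229). The third probe set, 211803_at, was dim and read 4.46, 4.39 and 4.27 in ICC, 4.19, 4.08 and 4.27 in CA, and 4.27, 4.39 and 4.48 in Control. It stood at -0.01 in ICC and -0.20 in CA (unadjusted p 0.0399), and at +0.19 for ICC against CA (unadjusted p 0.0471).

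**Figure D2:**
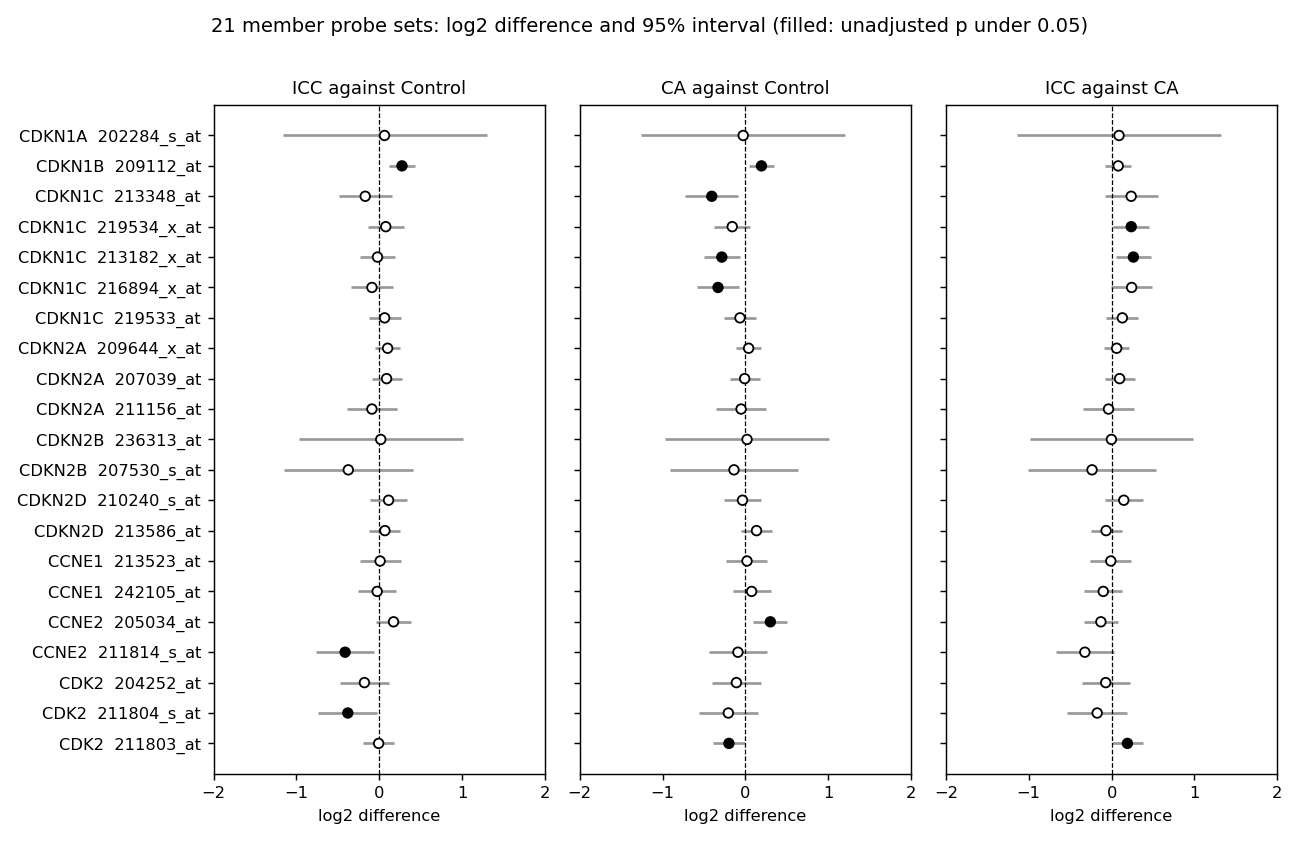
Log2 difference (horizontal axes) of the 21 member probe sets for each of the 3 comparisons, with 95% intervals as bars. Filled points have an unadjusted p under 0.05, which 3, 6 and 3 of the 21 have, and the widest intervals are those of CDKN1A and CDKN2B.

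With limma over all 54613 probe sets, 0 of 21 member probe sets had an adjusted p below 0.05 in any of the 3 treatment comparisons, where 0% of all probe sets had one in each. With the replicate number as a block the count of members was also 0, where 0.00366% of all probe sets passed for ICC against Control and 0% in the others. At an unadjusted p under 0.05, ICC against Control had 3 of 21 (8.23% of all probe sets), 1 higher and 2 lower, where 4.79% and 3.43% of all were higher and lower. CA against Control had 6 of 21 (4.68%), 2 higher and 4 lower (2.18% and 2.49%), and 3 of these 6 belong to CDKN1C. ICC against CA had 3 of 21 (2.65%), 3 higher and 0 lower (1.78% and 0.87%), of which 2 belong to CDKN1C. These counts are without the replicate block. With the block CCNE2 probe set 211814_s_at was lower in ICC than in CA at an unadjusted p of 0.00692 (adjusted p 0.882). CDKN1C probe set 216894_x_at then also came under the threshold, higher in ICC than in CA (unadjusted p 0.0498, adjusted p 0.882). CDK2 probe set 211803_at no longer did (unadjusted p 0.0523).

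Groups without overlap were seen for ICC against Control in 3 of 21 member probe sets (11.8% of all), 2 higher and 1 lower (7.08% and 4.75%). For CA against Control there were 5 of 21 (7.85%), 2 higher and 3 lower (3.79% and 4.06%). For ICC against CA there were 2 of 21 (5.89%), 2 higher and 0 lower (3.78% and 2.11%). All arrays of both treatments lay above Control in 2 of 21, CDKN1B and CCNE2 probe set 205034_at, against 2.15% of all. The median difference of the 21 was +0.01 log2 for ICC and -0.05 for CA against Control, and +0.06 between ICC and CA, where the medians of all probe sets were +0.01, -0.0047 and +0.02. By the brightest probe set of each member gene the medians were +0.06, +0.02 and +0.06, beside +0.03, +0.0027 and +0.02 over all genes. An exact permutation test of 3 arrays against 3 cannot give a p under 0.1.

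Other genes of the pathway were counted by the brightest probe set of each gene. None of 28 G1/S partners, 17 TGF-beta and FOXO regulators, 7 repressors of the INK4 locus, 17 E2F targets or 8 proliferation markers passed in either treatment. At an unadjusted p under 0.05 there were 2 G1/S partners in ICC, both higher (7.52% of all genes), namely E2F4, a repressive E2F factor, at +0.23 and the pocket protein RBL1 at +0.17. In CA there were 3, all higher (background 4.38%), namely the S phase cyclin CCNA2 at +0.24, RB1 at +0.18 and E2F4 at +0.15. The only other gene was POLA1, a DNA polymerase subunit among the E2F targets, at -0.25 in ICC. Between ICC and CA no listed gene had such a p, where 2.59% of all genes had one. The medians were +0.05 and +0.04 for the proliferation markers and +0.0077 and -0.04 for the E2F targets in ICC and CA (13 of 17 below 0 in CA), beside +0.03 and +0.0027 over all genes.

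The arrays were then set against each other by replicate number, with the treatment group as a term of the model. CDKN1A was the 1 of 21 member probe sets that passed the F-test (adjusted p 0.00768), where 4.72% of all probe sets passed. An unadjusted p under 0.05 was found in 5 of 21, where 19.7% of all had one. Both counts lay near the share of all probe sets, so they do not set the members apart. In CDKN1A, replicate 3 averaged 8.21 ± 0.39 log2, replicate 2 9.68 ± 0.34 and replicate 1 9.57 ± 0.29 (SD, n = 3 arrays, 1 from each group). The difference of replicate 3 from replicate 1 was -1.36 ± 0.22 log2 (SE, 2.57-fold, limma adjusted p 0.00806) and from replicate 2 -1.48 ± 0.22 (2.78-fold, adjusted p 0.0207), where 4.55% and 0.965% of all probe sets passed (2.47% and 0.493% lower). Replicate 2 stood at +0.12 against replicate 1 (adjusted p 0.866), where 1.98% of all passed and 1.38% were lower. The F-test call was lost without Control replicate 3 (adjusted p 0.0622), without CA replicate 3 (0.0515) and without all 3 Control arrays (0.132).

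CDKN2B was also low in replicate 3 of CA and Control, without passing. In ICC its probe set 236313_at read 6.59 in replicate 3 and 6.51 in replicate 1, so replicate 3 was not the lowest there. Over the groups it averaged 6.06 ± 0.46 in replicate 3, 7.20 ± 0.32 in replicate 2 and 6.82 ± 0.44 in replicate 1, which made -1.13 log2 against replicate 2 (adjusted p 0.0765) and -0.76 against replicate 1 (0.145), with an F-test at 0.0676. It passed the F-test without ICC replicate 3 (adjusted p 0.0163) or without Control replicate 1 (0.0386). Probe set 207530_s_at read 5.02 to 5.13 in the 3 replicate 3 arrays, below all 6 others, at -0.66 and -0.63 (F-test 0.252). In ICC replicate 3, CDKN1A and CDKN2B probe set 236313_at were less low than in the other replicate 3 arrays. Replicate 3 lay below all other arrays in 2 of 21 member probe sets, 1 each of CDKN1A and CDKN2B, against 3.85% of all probe sets, and above all other arrays in 0 of 21, against 3.04%.

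**Figure D3:**
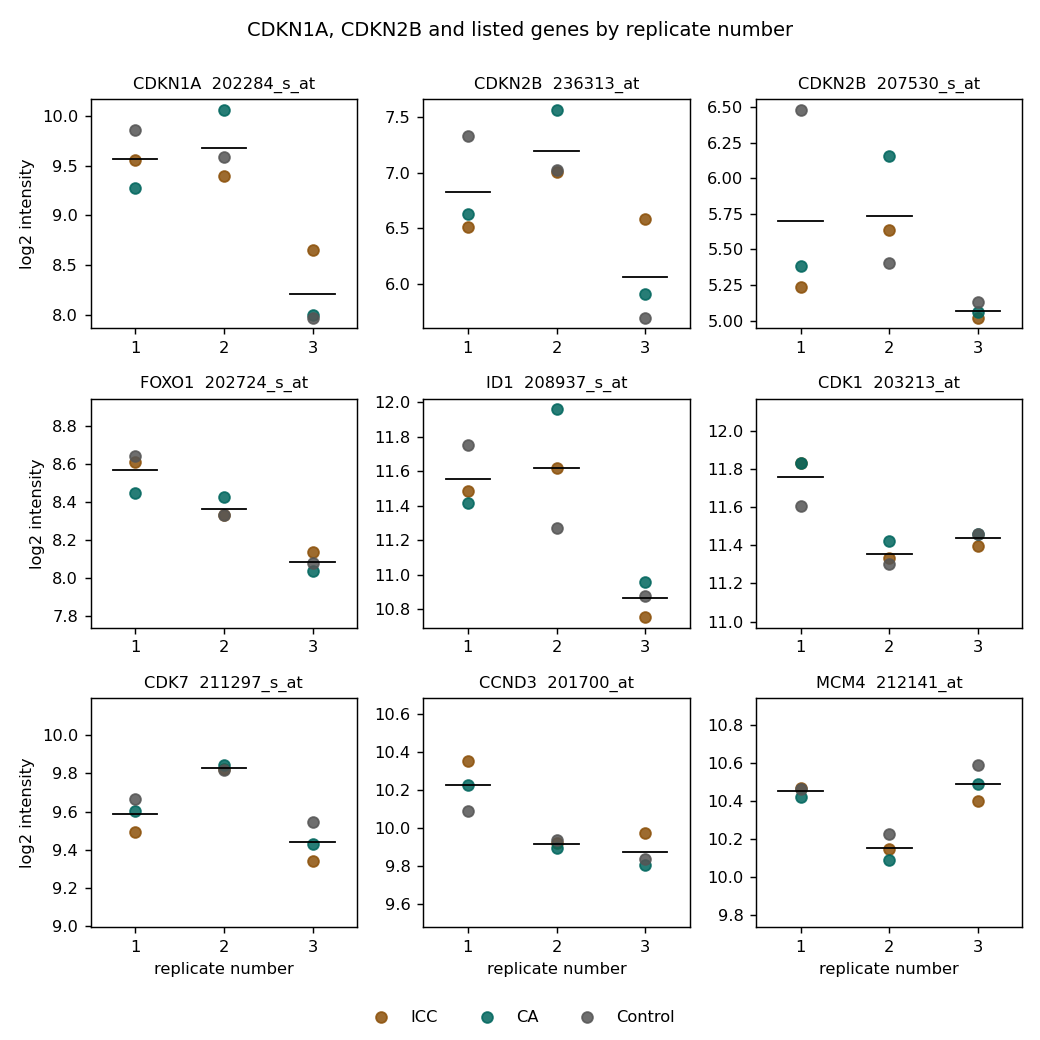
Log2 intensity (vertical axes, a scale for each panel) by replicate number for CDKN1A, both CDKN2B probe sets and 6 listed genes that passed the F-test. Colours give ICC, CA and Control, and lines the means of 3 arrays. The replicate 3 arrays lie lowest in CDKN1A, in CDKN2B probe set 207530_s_at, and in FOXO1 and ID1, and not in CDK1, CDK7, CCND3 and MCM4 taken over all 9 arrays.

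Beside these, CCNE2 probe set 211814_s_at had a mean of 7.88 in replicate 3, 7.72 in replicate 2 and 8.13 in replicate 1 (F-test adjusted p 0.0748), and CCNE1 probe set 213523_at 8.72, 8.53 and 8.78 (0.164). Both were lowest in replicate 2, at -0.41 and -0.25 log2 against replicate 1. CDKN1B, by contrast, stood at -0.03 in replicate 3 against replicate 1 and +0.02 against replicate 2 (F-test adjusted p 0.917), with 95% intervals of -0.19 to 0.14 and -0.14 to 0.19.

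**Figure D4:**
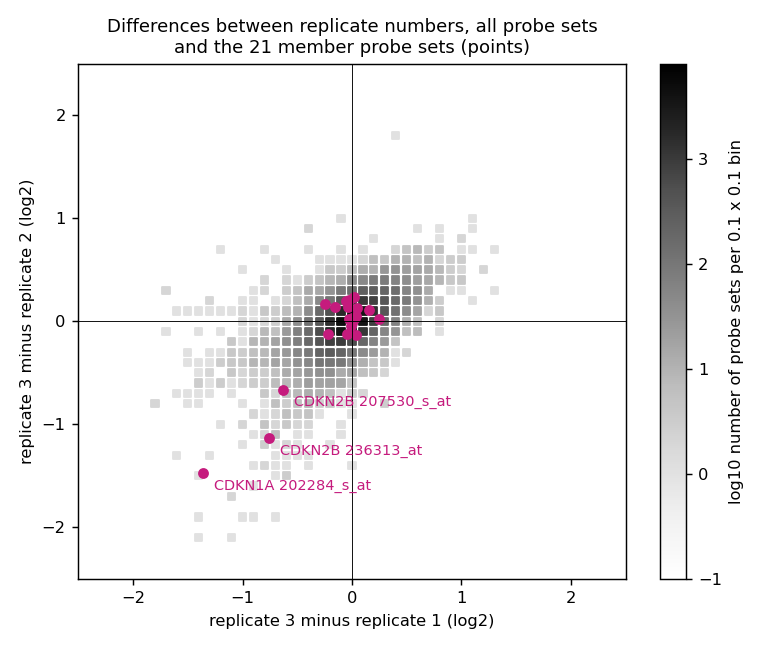
Log2 difference of replicate 3 from replicate 1 (horizontal) and from replicate 2 (vertical) for all 54613 probe sets, shaded by their number per bin on a log10 scale, and for the 21 member probe sets (points). CDKN1A lies at -1.36 and -1.48 and the CDKN2B probe sets at -0.76 and -1.13 and at -0.63 and -0.66, while the other 18 points lie near 0.

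The upstream sequences of these 3 inhibitors are shown because CDKN1A passed the test by replicate number, CDKN2B stood lower in replicate 3 on average, and CDKN1B did neither. Each line gives the 250 bases before a transcript start listed by RefSeq in GRCh38.p14, which need not be the outermost start of the gene. The CDKN1A window lies inside the gene interval given above, and the CDKN2B window overlaps the end of its interval. The bases are read 5′ to 3′ on the strand of the gene. Capitals mark the GC box GGGCGG or its reverse CCGCCC, a binding site of Sp1.
CDKN1A (chr6:36678464-36678713, plus strand): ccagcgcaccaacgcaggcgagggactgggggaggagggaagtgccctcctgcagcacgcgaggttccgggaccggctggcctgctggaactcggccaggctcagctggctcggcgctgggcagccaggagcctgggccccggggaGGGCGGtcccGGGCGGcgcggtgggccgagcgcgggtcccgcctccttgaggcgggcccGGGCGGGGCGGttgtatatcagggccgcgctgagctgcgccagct
CDKN2B (chr9:22009306-22009555, minus strand): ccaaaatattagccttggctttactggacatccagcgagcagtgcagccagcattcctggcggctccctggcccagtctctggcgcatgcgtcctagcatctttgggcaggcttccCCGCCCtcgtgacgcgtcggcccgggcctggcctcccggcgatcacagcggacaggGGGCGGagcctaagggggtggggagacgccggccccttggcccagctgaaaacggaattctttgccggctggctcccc
CDKN1B (chr12:12717118-12717367, plus strand): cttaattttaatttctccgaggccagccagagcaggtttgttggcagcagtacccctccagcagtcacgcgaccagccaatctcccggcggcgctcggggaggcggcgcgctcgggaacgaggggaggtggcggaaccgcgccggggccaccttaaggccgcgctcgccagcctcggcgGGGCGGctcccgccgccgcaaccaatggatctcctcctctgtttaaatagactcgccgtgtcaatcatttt
The window of CDKN1A holds 4 GC boxes, of which the last 2 overlap, that of CDKN2B holds 2 and that of CDKN1B holds 1, and 42.6% of 35116 such windows hold at least 1. CDKN1B holds 2 CCAAT boxes (CCAAT or ATTGG, in 32% of windows), and CDKN2B holds 1 copy of TGACG or CGTCA, a part of the cAMP response element (in 21.2%). None of the 3 holds the E box CACGTG (in 6.34%). These matches describe letters only. The share of windows with more than 1 GC box was not counted, and a link to the replicate number was not tested.

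Of 17 TGF-beta and FOXO regulators 2 passed the F-test by number, where 5.06% of all genes did: ID1, a target of BMP and TGF-beta signalling, and the transcription factor FOXO1. ID1 read 10.76, 10.96 and 10.88 in replicate 3 of ICC, CA and Control, against 11.62, 11.96 and 11.27 in replicate 2 and 11.49, 11.42 and 11.76 in replicate 1 (F-test adjusted p 0.0259). All 3 replicate 3 arrays of ID1 lay below the 6 others. FOXO1 stood at -0.48 in replicate 3 against replicate 1 (adjusted p 0.00771). Of the 17, 2 were lower at an adjusted p under 0.05 in replicate 3 against replicate 1 and 1 against replicate 2, where 4.23% and 1.08% of all genes passed in either direction. The transcription factor KLF4, which is known to act on CDKN1A, stood at -1.10 against replicate 2 and -0.70 against replicate 1 without passing (F-test adjusted p 0.0521). The receptor gene TGFBR1 went the other way, at +0.24 against replicate 1 and +0.04 against replicate 2 (F-test adjusted p 0.107). Of the 17, 12 lay below 0 and 5 above against replicate 1, and 11 below and 6 above against replicate 2. Their medians were -0.11 in both, beside -0.03 and +0.0028 over all genes. Of 28 G1/S partners 3 passed, namely CDK1, CDK7 and CCND3. The mitotic kinase CDK1 was lower in replicates 3 and 2 than in replicate 1, at -0.32 and -0.40 log2 (adjusted p 0.0423 and 0.0286), where 2.61% of all genes passed in replicate 2 against 1.

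Of 8 proliferation markers 0 passed the F-test by number. In replicate 2 against replicate 1, however, 1 of the 8 passed and was lower, where 2.61% of all genes passed. An unadjusted p under 0.05 in the F-test was found in 4 of 8 markers and 5 of 17 E2F targets, where 19.7% of all probe sets had one. All 8 proliferation markers lay below 0 in replicate 3 against replicate 1 (median -0.16 log2) and 7 of 8 did in replicate 2 against replicate 1 (median -0.26), and the median of replicate 3 against replicate 2 was +0.05. Over all genes these medians were -0.03, -0.03 and +0.0028. The 17 E2F targets had medians of -0.08, -0.17 and +0.04 in the same 3 comparisons, and MCM4, a subunit of the replicative helicase, was the 1 that passed the F-test (adjusted p 0.0362). Of 10 listed INK4 locus repressors 7 were measured, without BMI1, CBX8 and RNF2, and none of them passed the F-test. All 7 lay below 0 in replicate 3 against replicate 1 (median -0.13) and 6 of 7 did in replicate 2 against replicate 1 (median -0.13). In replicate 3 against replicate 2, 4 of 7 did (median -0.0084). What the replicate number marks was not stated.

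The genes whose pattern over the 9 arrays was most like that of CDKN1A, among 1559 variable and brighter genes, were SERPINB8, a serine protease inhibitor, at a Pearson r of 0.990, AUNIP, an interactor of the mitotic kinase Aurora A, at 0.982, and TBC1D20, a GTPase activator, at 0.981. All 3 were low in replicate 3, at -0.39, -0.36 and -0.34 log2 against replicate 1, and the arrays share their replicate number, with 3 low arrays and 6 higher ones behind each r. With arrays that share a number, these r describe the pattern only. For CCNE2 probe set 205034_at the most alike were LOC101927166 (0.747), TMPO-AS1 (0.742) and ZKSCAN3 (0.724), which stood at +0.40, +0.0028 and +0.32 in ICC and at +0.43, +0.27 and +0.36 in CA against Control. They were chosen for this likeness, so their differences are a description.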

How the data were processed

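RNA of HT29 cells was hybridised to 9 Affymetrix arrays, 3 each of ICC, CA and Control. The authors deposited an intensity table, for which RMA is named per the submitters' processing notes, and the design text names GeneSpring GX. For neither are version and settings stated. The table holds linear intensity where log2 had been planned for, so log2 was taken of each value with no pseudocount. The 62 control probe sets were left out, and genes were named through the platform's annotation table (41091 probe sets with 1 gene, 13522 with several or none).

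A linear model of the 3 groups was fitted (limma 3.58.1, R 4.3.3), with moderated t-tests, and Benjamini-Hochberg adjustment over 54613 probe sets at a threshold of 0.05. Replicate numbers were tested with the group as a term by a moderated F-test. Deviations of same-numbered arrays from their group means correlated between 0.271 and 0.478 in all 9 pairs (others -0.407 to 0.077), so the number was also used as a block. The numbers come from the sample titles. The tests were checked on simulated data.

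Members, gene lists and tests were chosen with earlier results of these data known. Named were all members, with values of each gene's brightest probe set and of any probe set with an unadjusted p under 0.05, up to 4 genes per list by smallest p, and the 3 genes with the highest Pearson r to CDKN1A and CCNE2 among genes above the median brightness with an SD of at least 0.2. One further gene list is not reported here. Plots used Python 3.11.15 and matplotlib 3.10.9.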

Additional observations from a re-analysis of the deposited data

How the results depend on the processing

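The 3 counts of member probe sets that passed against Control and between treatments stayed at 0 under every alternative tried: the replicate block, quantile normalization applied again, centring on medians, no dim probe sets, 1 probe set or the mean per gene, no _x_at or _s_at probe sets, only the 2 groups compared, and leaving out any 1 array. With the replicate block no call on a member changed (smallest adjusted p 0.175 in ICC against Control, 0.487 in CA against Control and 0.882 in ICC against CA), while over all probe sets the block called 2 in ICC against Control and 0 in the others, where the test without it called 0. Centring gave CDKN2B 236313_at -0.0090 and CCNE1 213523_at -0.017 log2 in ICC against Control, both turned in sign, and a further quantile step gave CDKN2B 236313_at +0.0022 in ICC against CA. The mean of probe sets per gene turned CDKN2B (-0.18), CCNE1 (-0.0084) and CCNE2 (-0.12) in ICC against Control, and CDKN2A (-0.0079), CDKN2B (-0.060) and CDKN2D (+0.049) in CA against Control. Each of these genes has probe sets of opposite sign, so the turn follows from averaging them. Centring subtracts the median of each array from all its values, so its 2 turns follow from that shift of differences near 0. The causes of the remaining sign changes were not tested.

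Leaving out 1 array at a time turned the sign of differences that lay near 0. In ICC against Control the range was -0.52 to 0.42 for CDKN1A, -0.48 to 0.34 for CDKN2B 236313_at, -0.050 to 0.071 for CCNE1 213523_at, -0.063 to 0.042 for CDK2 211803_at, and -0.00040 to 0.14, -0.076 to 0.042 and -0.15 to 0.026 for CDKN1C 219534_x_at, 213182_x_at and 216894_x_at. In CA against Control it was -0.61 to 0.53 for CDKN1A, -0.47 to 0.42 for CDKN2B 236313_at, -0.098 to 0.060 for CDKN2D 210240_s_at, -0.058 to 0.15 for CCNE1 213523_at and -0.23 to 0.095 for CCNE2 211814_s_at. In ICC against CA it was -0.47 to 0.57 for CDKN1A, -0.40 to 0.43 for CDKN2B 236313_at, -0.14 to 0.067 for CCNE1 213523_at and -0.21 to 0.0066 for CDK2 204252_at. CDKN1B kept its sign, at 0.24 to 0.31 in ICC and 0.16 to 0.22 in CA against Control. So did CDKN1C 213348_at, CDKN2A 209644_x_at, CCNE2 205034_at and CDK2 204252_at and 211804_s_at in both comparisons against Control.

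The count of member probe sets that passed by replicate number was 1, and 0 without _x_at and _s_at probe sets, since the CDKN1A probe set is then left out, and 0 without the 3 Control arrays. Leaving out single arrays, an alternative chosen after seeing the data, gave 0 to 2 members: 0 without Control replicate 3 or CA replicate 3, and 2 without Control replicate 1 or ICC replicate 3, when CDKN2B 236313_at passed too. For CDKN1A, replicate 3 against 1 missed the threshold without Control replicate 1 (adjusted p 0.0512), Control replicate 3 (0.0606) or all Control arrays (0.146). Replicate 3 against 2 missed it without Control replicate 2 (0.0810), Control replicate 3 (0.162), CA replicate 2 (0.0819), CA replicate 3 (0.103), all Control arrays (0.221) or all CA arrays (0.129). Over all probe sets 2578 passed by number, against 1217 and 1120 genes by the brightest probe set and by the mean, 135, 632 and 429 probe sets without the Control, CA and ICC arrays, and 828 to 1792 without single arrays. With 3 arrays a group, the number of arrays limits the precision.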
